A study of Mus musculus with 18 samples.

Results

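The comparison set 10 μM cannabidiol (CBD) against 10 μM Δ9-tetrahydrocannabinol (THC) in resting BV-2 cells, an immortalised mouse microglial line, with neither side given the bacterial product lipopolysaccharide (LPS). The libraries were those whose label gives the treatment as CBD, numbered 24, 30 and 36 in the titles, and as THC, numbered 25, 31 and 37, which are 6 of the 18 small RNA libraries in the series. By the study's methods the cells were exposed to a cannabinoid for 6 h. The other groups, with 3 libraries each, were untreated control cells (22, 28 and 34), cells given LPS alone at 100 ng/ml (23, 29 and 35), which entered the model and the plot of library composition, and cells that received CBD or THC for 2 h before LPS was added for another 4 h. The cannabinoids were dissolved in ethanol. All groups were cultures of this single line. Whether the libraries of a group came from separate cultures is not stated, and p-values measure only the spread between these libraries.

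MicroRNAs (miRNAs) are short RNAs that pair through bases 2 to 8 of their 5′ end, the seed, with messenger RNAs and lower their translation or stability. A transcript folds into a hairpin (written mir), which is cut into a mature form (written miR) from its 5′ or 3′ arm. In microglia and macrophages, Toll-like receptor and NF-κB signalling raises miR-155 and miR-146a, the former known as a promoter and the latter as a brake of the inflammatory response. CBD and THC are plant cannabinoids that share most of their carbon skeleton. In THC an ether oxygen closes a pyran ring, where CBD has that ring open and carries an additional free hydroxyl group.

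The deposited values are reads scaled by library size and edgeR's TMM factor (CPM), and hairpins and mature miRNAs are features of their own. Of 2134 features, 1363 had at least 10 reads over the 18 libraries and were tested, 642 hairpins and 721 mature miRNAs, of which 393 had fewer than 10 reads and 3 had none in the CBD and THC libraries. The CBD libraries held 618383, 541844 and 660003 reads and the THC libraries 782757, 858551 and 773020. A feature with no read in a group is limited by 3 reads over its 3 libraries, 1.61 CPM with CBD and 1.16 CPM with THC, for counting error only. The libraries did not resemble each other equally: the counts of CBD libraries 30 and 36 differed by a chi-square of 3.38 per degree of freedom, against 41.3 and 48.3 for either with library 24, and THC libraries 31 and 37 by 9.73, against 81.2 and 98.6 for either with library 25. The pair that stood apart, 24 and 25, both carry title numbers from 22 to 27, and whether libraries with such neighbouring numbers were prepared together is not stated. Together, the hairpins mir-6243, mir-6236 and mir-6240 took 1.67%, 0.160% and 0.151% of the reads in CBD libraries 24, 30 and 36 and 4.56%, 2.77% and 1.80% in THC libraries 25, 31 and 37. The miRNAs that mark the labelled myeloid cells (miR-223, miR-142, miR-146a, miR-155 and miR-21a) summed to 36978 to 45079 CPM with CBD and 33443 to 48530 CPM with THC, with none of their 10 mature forms at 0. The 51 mature markers of neurons, oligodendrocytes, liver, muscle, epithelium, endothelium, fibroblasts and red cells summed to 8825 to 10187 CPM with CBD and 8242 to 11440 CPM with THC, most of it from the epithelial group, and none passed the criterion between the cannabinoids.

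A feature passed the criterion when limma's test on log2(CPM + 1) gave it an unadjusted p no higher than 0.005 and a change of 1.5-fold or more. The CBD and THC libraries differed in 45 features (3.30% of those tested), with 18 higher (1.32%) and 27 lower (1.98%) with CBD. After Benjamini-Hochberg adjustment over all features, 7 remained at an adjusted p of at most 0.1 (0.514%). Higher with CBD among these 7 were the hairpins mir-3096b, mir-3096a, mir-5117 and mir-181b-1 and the mature miR-6384 and miR-155-5p, and lower was the hairpin mir-669o. The 3 CBD values lay wholly above or below the 3 THC values in 281 features (20.6%), including all 18 of the higher and 24 of the 27 lower features.

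The mature sequences below are those of miRNAs named in the comparison, from RefSeq (GRCm38.p6), with the seed in capitals. In the first group, the entries down to miR-326-5p were higher with CBD. Both mature products of mir-181b-1 and the 5p product of the let-7e hairpin are shown for the hairpins, which were higher. None of these mature products passed the criterion, and miR-181b-1-3p averaged lower with CBD. The other arm, let-7e-3p, is not shown.
miR-155-5p: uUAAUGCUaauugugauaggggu
miR-6384: gCUUUCCUacuguuucccug
miR-1306-3p: aCGUUGGCucugguggugaug
miR-326-5p: gGGGGCAGggccuuugugaaggcg
miR-181b-5p: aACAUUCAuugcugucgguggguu
miR-181b-1-3p: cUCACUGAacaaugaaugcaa
let-7e-5p: uGAGGUAGgagguuguauaguu
The second group was lower with CBD, and miR-6239 and miR-6351 share the seed AGCGUUG, which no other tested mature miRNA with a RefSeq sequence had.
miR-6239: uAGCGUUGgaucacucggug
miR-6351: uAGCGUUGcucagggagcacaug
miR-6241: cACGGCGGcuggaauuccc
miR-5710: uCUUGGGAcauaguguaaggca
miR-3962: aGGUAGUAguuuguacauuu
miR-181d-3p: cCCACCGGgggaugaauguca
The third group holds the seed of miR-34a and miR-449a, which were also assayed by quantitative PCR.
miR-34a-5p: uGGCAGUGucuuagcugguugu
miR-449a-5p: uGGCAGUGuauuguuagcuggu
RefSeq held sequences for 31 of the 45 features. The other 14, among them mir-3096a, mir-3096b, mir-5097, mir-5112, mir-5117, mir-505, miR-34c-5p and mir-669o, are named only.

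**Figure D1:**
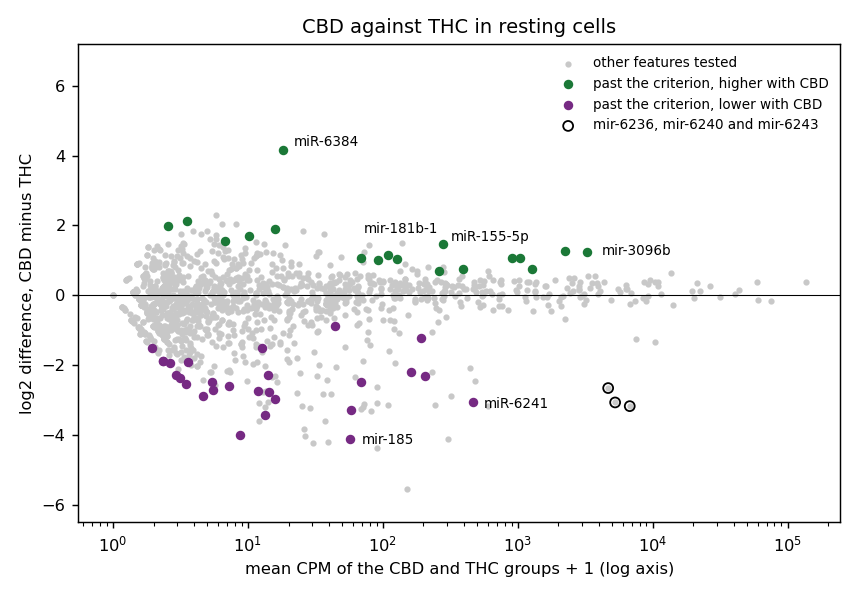
Log2 difference of CBD minus THC (vertical axis) against the mean CPM of the 6 libraries plus 1 (log horizontal axis), with 1 point for each of the 1363 features tested. The 18 features higher with CBD (green) include abundant hairpins such as mir-3096b and mir-5097, whereas most of the 27 lower ones (purple) lie below 100 CPM, and the circled mir-6243, mir-6236 and mir-6240 lie at -2.66 to -3.18.

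miR-155 was higher with CBD in both its main mature product and its hairpin. The hairpin lies at chr16:84714140-84714204 on the plus strand (GRCm38), in an exon of Mir155hg, the noncoding transcript that carries it. The 5p arm measured 1024, 1292 and 1407 CPM with CBD and 659, 499 and 596 CPM with THC, so that the lowest CBD library was above the highest THC library. The difference was 2.12-fold, 1.08 on the log2 scale (SE 0.22, adjusted p = 0.0355 by limma). The hairpin stood at 120.5, 107.03 and 137.5 CPM against 74.6, 50.8 and 56.7 CPM, a difference of 1.003 on the log2 scale (SE 0.25) with an adjusted p of 0.120. The control libraries, at 1248, 598 and 919 CPM of miR-155-5p, overlapped with both cannabinoid groups. Against control the log2 difference of miR-155-5p was 0.48 with CBD and -0.60 with THC, and neither passed the criterion. The 3p arm, at 15.8, 9.39 and 17.4 CPM with CBD and 13.9, 8.26 and 10.8 CPM with THC, did not pass, with a log2 difference of 0.32 and a 95% interval from -0.33 to 0.98.

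Of the 18 features higher with CBD, 12 were hairpins, as were 14 of the 27 lower features and 642 of the 1363 features tested. The most abundant of the 12 have little known function. mir-3096a and mir-3096b were listed here as hairpins that resemble small nucleolar RNAs. Whether their reads came from such RNAs was not tested. mir-3096b measured 3536, 5434 and 4912 CPM with CBD and 1674, 2098 and 1999 CPM with THC. It was 2.38-fold higher (log2 1.25, SE 0.17, adjusted p = 0.00107), and its CBD libraries also lay above the control libraries, at 2208 to 2388 CPM. mir-3096a stood at 1077, 1619 and 1551 CPM against 550, 744 and 727 CPM, 2.09-fold higher with an adjusted p of 0.0168. mir-5117 stood at 1543, 1607 and 1644 CPM against 811, 945 and 1113 CPM, 1.68-fold higher with an adjusted p of 0.0355. In these 3 hairpins every THC library was also below every control library. mir-5097 was at 2647, 3217 and 3640 CPM with CBD and 1624, 1178 and 1154 CPM with THC, a 2.41-fold difference with an adjusted p of 0.105. mir-5112 (2.07-fold), mir-505 (1.63-fold), mir-3971 (2.10-fold, in an intron of the amino acid transporter gene Slc43a2) and mir-1900 (1.70-fold) were higher by the criterion alone, with adjusted p between 0.120 and 0.142. mir-505 stood at 311, 284 and 379.3 CPM against 196, 178 and 221.5 CPM, and mir-3971 at 119, 65.7 and 93.3 CPM against 58.7, 36.6 and 35.1 CPM.

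Among the let-7 and miR-181 families, the former known for its part in differentiation and the latter for its part in lymphocyte development, 1 hairpin each was higher with CBD. mir-181b-1, at chr1:137966639-137966718 on the plus strand in an exon of the noncoding A430106G13Rik, measured 568, 353 and 316 CPM with CBD and 137, 149 and 141.8 CPM with THC, 2.79-fold higher (log2 1.48, SE 0.31, adjusted p = 0.0369). The 3 THC libraries lay within the control range of 119 to 161 CPM, and all CBD libraries lay above it. The second hairpin that yields miR-181b-5p, mir-181b-2, differed by 0.24 on the log2 scale (95% interval -0.31 to 0.79). The shared product miR-181b-5p averaged 4973 CPM with CBD and 3757 CPM with THC, a log2 difference of 0.39 (0.0032 to 0.78) that did not pass the criterion. Its other product, miR-181b-1-3p, averaged 37.9 CPM with CBD and 42.1 CPM with THC (log2 difference -0.20, -0.97 to 0.57) and did not pass either. Summed over both miR-181b hairpins and their arms, 5 features in all, the groups overlapped, at 4440, 6009 and 6033 CPM with CBD and 3416, 4134 and 4455 CPM with THC. The let-7e hairpin, in an intron of Spaca6 at chr17:17830352-17830444 on the plus strand, held 14, 15 and 15 reads with CBD and 9, 4 and 3 with THC, or 20.1, 28.2 and 23.7 CPM against 8.95, 4.72 and 4.05 CPM. Its log2 difference was 1.91 (SE 0.46, adjusted p = 0.103). Mature let-7e-5p differed by 0.84 (-0.14 to 1.82), with few reads, and let-7e-3p averaged 35.6 CPM against 40.8 CPM (log2 difference -0.21, -0.87 to 0.44). Neither arm passed, and the sums of hairpin and arms overlapped, at 55.9, 71.4 and 80.6 CPM with CBD and 58.7, 51.9 and 45.9 CPM with THC.

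The mature miRNAs that were higher with CBD, beside miR-155-5p, held few reads with the exception of miR-1306-3p. miR-6384, encoded on the minus strand in an intron of the heparan sulphate proteoglycan gene Gpc3 (hairpin at chrX:52378121-52378181), held 31, 16 and 15 reads with CBD and 5, 0 and 0 with THC. The CBD libraries stood at 44.5, 30.04 and 23.7 CPM, above both THC and the control libraries at 4.66 to 8.51 CPM, and the log2 difference was 4.17 (SE 0.80, adjusted p = 0.0319). miR-34c-5p, a member of the p53-responsive miR-34 family, held 3, 1 and 2 reads with CBD and none with THC. With 6 reads in the CBD and THC libraries together it passed the criterion with limma (adjusted p = 0.115). The fitted fold of so few reads depends on the pseudocount. miR-1306-3p, cut from a hairpin in an exon of Dgcr8, a gene whose product is itself part of the enzyme complex that cuts primary miRNAs, measured 135, 135 and 174 CPM against 60.7, 85.0 and 55.4 CPM (2.21-fold, adjusted p = 0.128). miR-6336, miR-326-5p (from an intron of the β-arrestin gene Arrb1) and the hairpin mir-3077 completed the 18, with 28, 9 and 17 reads over the CBD libraries and 10, 1 and 6 over the THC libraries. miR-34c-5p and miR-326-5p, with 11 and 17 reads over the 18 libraries, reached the 10-read filter only with their CBD reads. They were thus tested because of the group in which they were high.

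**Figure D2:**
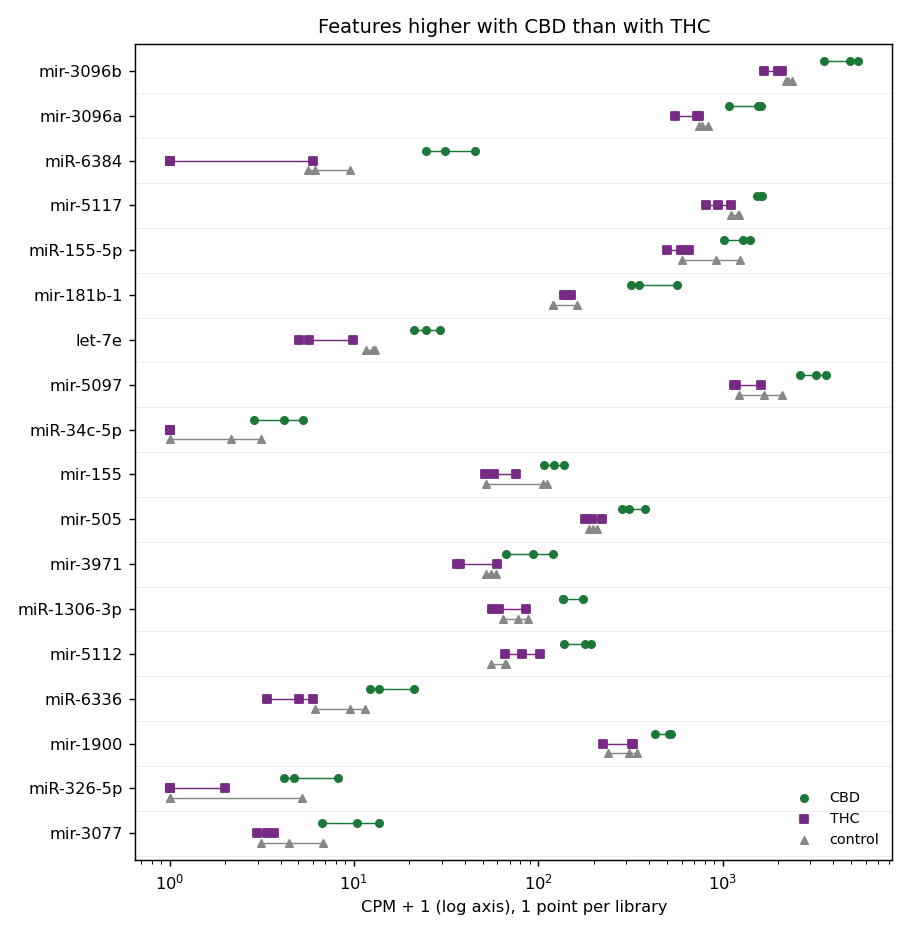
CPM plus 1 (log axis) of the 18 features higher with CBD, ordered by p, with 1 point per library for CBD (circles), THC (squares) and control (triangles) and a line over each group's range. In every row the CBD range lies above the THC range, while for miR-155-5p the control libraries, at 598 to 1248 CPM, reach into the CBD range.

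Hairpins and the mature miRNAs cut from them did not always move together. For 17 names among the higher features, the CPM of hairpin and arms were summed, and the sums remained separated in 13, and in 15 of 26 names among the lower features. Each sum includes the feature chosen for its difference, often as its main part, which favours separation. The share of all names with separated sums was not computed. mir-3096b and its arms summed to 5303, 7588 and 7049 CPM with CBD and 3340, 4719 and 4998 CPM with THC, a difference of mean log2 values of 0.62, with the arm miR-3096b-3p at 1829 CPM with CBD and 2327 CPM with THC. For mir-5112 the sums overlapped, and mature miR-5112 held 65, 10 and 22 reads with CBD and 153, 82 and 62 with THC. Hairpin mir-505 was higher with CBD, whereas miR-505-3p held 7, 1 and 4 reads with CBD and 11, 15 and 9 with THC. miR-326-3p, the more abundant arm of its hairpin, measured 361, 672 and 511 CPM against 191.9, 801 and 775 CPM. The hairpin and arms of miR-155 stayed apart, with sums of 1160, 1408 and 1562 CPM against 748, 558 and 663 CPM. How reads were divided between a hairpin and its arms is not stated in the sources used here.

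The 27 features lower with CBD were mostly close to the limit of detection. Only 8 of them had at least 100 reads over the 6 libraries, and 9 had no read in any CBD library. Every CBD library held fewer reads in all than every THC library. A single read was therefore worth 1.43 to 1.88 CPM with CBD and 0.994 to 1.35 CPM with THC, and raw reads overstate the differences. mir-669o, a member of the repeat cluster in Sfmbt2, was the one with an adjusted p of at most 0.1. It held 6, 4 and 3 reads with THC and none with CBD (adjusted p = 0.0596), which is at least 3.11-fold lower than with THC against the limit set by 3 reads over the group. mir-713 held 6, 0 and 0 reads with CBD and 24, 20 and 14 with THC, and mir-761 (in an exon of Nrd1) held 1, 0 and 0 against 10, 10 and 3. mir-499, in an intron of the muscle myosin gene Myh7b, held 4, 3 and 3 reads with CBD and 26, 11 and 11 with THC, with all CBD libraries below all THC libraries (log2 difference -1.51, SE 0.40, adjusted p = 0.121). None of these 4 hairpins exceeded 26 reads in a CBD or THC library.

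The others without a read in the CBD libraries were miR-3962, mir-6366, miR-5129-5p (in an exon of Zeb2), miR-6415, miR-6351, miR-1962, miR-3100-5p and miR-3108-3p. miR-3962 held 3, 5 and 3 reads with THC. It shares 17 of its 20 bases in an unbroken run with let-7g-5p, whose mean was 3096.3 CPM with CBD and 2574 CPM with THC, so that reads of the former cannot be told with certainty from the latter. mir-6366 and miR-6415 held 3, 2 and 2 reads each with THC, and miR-5129-5p held 9, 2 and 8. mir-6366, miR-6415 and miR-1962, with 15, 14 and 10 reads over the 18 libraries, reached the 10-read filter only with their THC reads. They were thus tested because of the group in which they were high. miR-6351 held the most reads of those absent with CBD, 22, 12 and 8 with THC, at least 10.1-fold more than the limit. It was also absent from control library 22, while control libraries 28 and 34 held 19 and 9 reads.

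A group of more abundant features was low in CBD libraries 30 and 36 and intermediate in library 24. miR-5710, from an intron of the chaperone gene Dnaja4, measured 61.7, 7.51 and 12.6 CPM with CBD and 140, 106.2 and 81.0 CPM with THC (log2 difference -2.47, SE 0.68, adjusted p = 0.131). mir-714 measured 212.2, 30.04 and 31.6 CPM against 449.5, 330.5 and 176 CPM, so that library 24 lay within the THC range. mir-666, of the imprinted Dlk1-Dio3 cluster, measured 17.2, 7.51 and 4.74 CPM against 144.2, 123.9 and 45.9 CPM (log2 difference -3.30, SE 0.94, adjusted p = 0.133). These features showed the same order of libraries, with the highest CBD value in library 24 and the lowest THC value in library 37. miR-6239 and miR-6241, 2 mature entries from chromosome 14, measured 140.5, 37.6 and 26.9 CPM against 320, 249 and 184 CPM, and 414, 39.4 and 41.1 CPM against 997, 754 and 544.4 CPM. mir-185, in an intron of Tango2, held 38, 0 and 1 reads with CBD and 120, 92 and 41 with THC, and its mature arms miR-185-5p and miR-185-3p did not pass the criterion, with log2 differences of 0.57 (-0.15 to 1.30) and -0.21 (-1.05 to 0.62). mir-1955 held 2, 0 and 0 reads with CBD and 9, 8 and 4 with THC. mir-696 varied less among libraries, at 27.2, 37.6 and 25.3 CPM against 70.6, 49.6 and 48.6 CPM. The control libraries held 68.4 to 89.3 CPM of it, and the log2 difference from control was -1.36 with CBD, past the criterion, and -0.47 with THC, which did not pass. The rest were miR-712-5p and its hairpin mir-712, miR-181d-3p, mir-3071, mir-6405, miR-1897-3p, miR-1962, miR-3100-5p, miR-3108-3p and mir-6341, with log2 differences from -1.23 to -2.97.

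**Figure D3:**
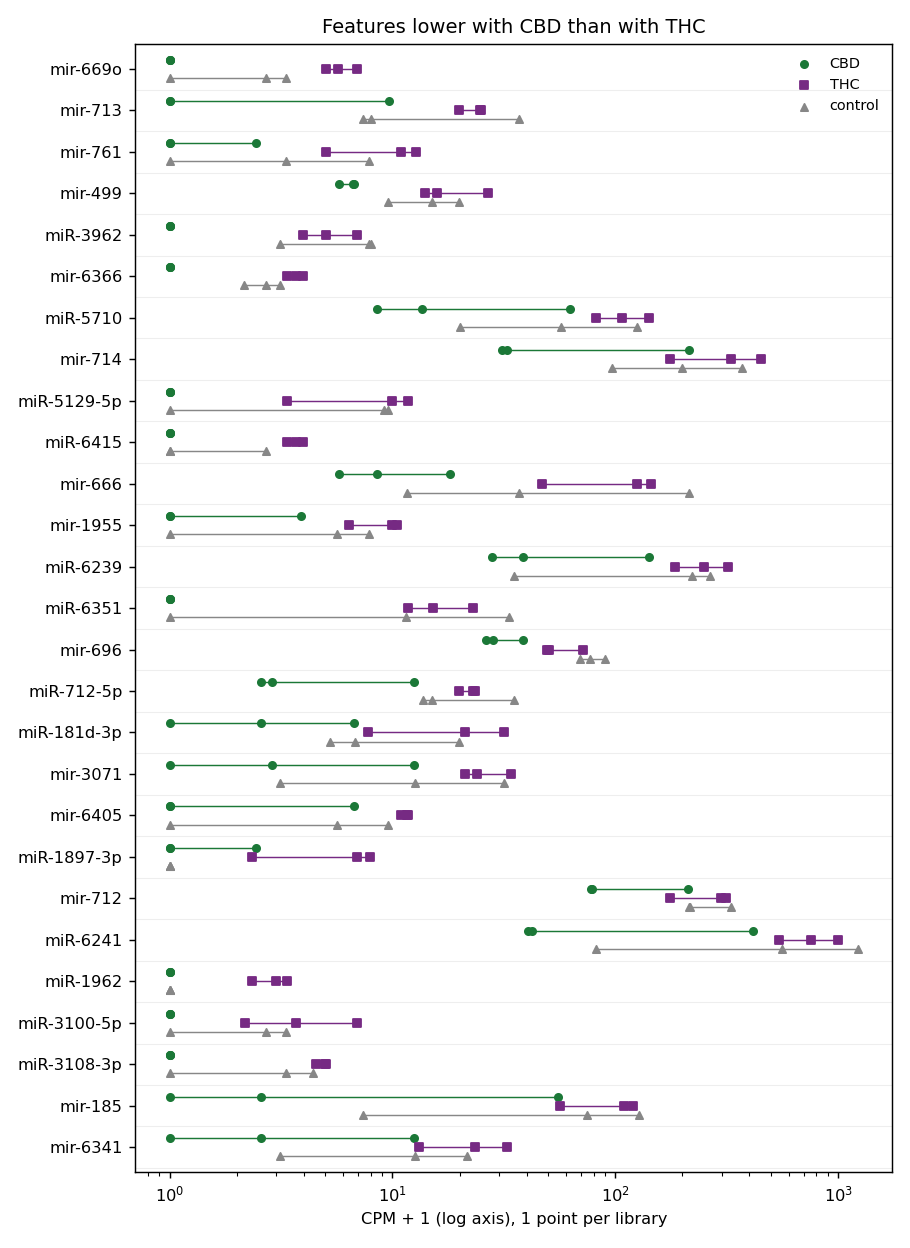
CPM plus 1 (log axis) of the 27 features lower with CBD, ordered by p, drawn as for the higher features, so that a value of 1 means no read. In 9 rows all CBD points sit at 1. In the rows of mir-714, mir-712 and miR-1897-3p CBD library 24 lies within the THC range while libraries 30 and 36 lie below it.

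The lower features moved with the composition of the libraries. Their median log2(CPM + 1) was 2.75, 0 and 0 in CBD libraries 24, 30 and 36 and 4.52, 3.92 and 3.56 in THC libraries 25, 31 and 37, in the order of the share of reads on mir-6243, mir-6236 and mir-6240. Outside the CBD and THC groups, the 2 libraries with the smallest such share were control library 22 (0.204%) and THC and LPS library 27 (0.361%). In library 22, 22 of the 27 features were below both other controls, against 40.3% of all features tested, and in library 27 again 22 of 27 were below both other libraries of its group, against 38.4%. Of the 18 features higher with CBD, 6 and 4 were below both others in these libraries. With the log2 level of the 3 hairpins as a covariate, 19 features (1.39%) passed in all, 16 higher and 3 lower with CBD. These included 0 of the 27 lower features, whose median log2 difference went from -2.47 to -0.99, all still below 0. They also included 8 of the 18 higher features, mir-3096b, mir-3096a, miR-6384, mir-5117, mir-181b-1, let-7e, mir-3971 and mir-5112, and the median log2 difference of the 18 went from 1.20 to 1.10. For miR-155-5p it became 0.64 and no longer passed. In CBD and THC this share and the treatment went together, since its lowest THC value, 1.80%, was above its highest CBD value, 1.67%, and the part of either in the differences cannot be told apart. The log2 differences of the 3 hairpins themselves were -3.18 (mir-6243), -3.07 (mir-6236) and -2.66 (mir-6240), and they missed the criterion, with adjusted p of 0.153, 0.151 and 0.153 by limma.

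**Figure D4:**
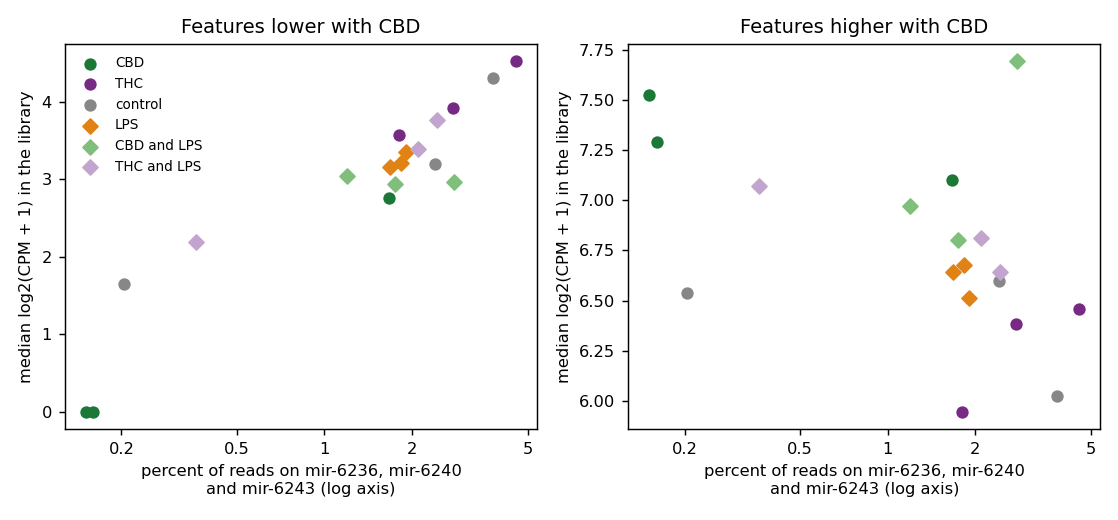
Median log2(CPM + 1) of the 27 lower (left) and the 18 higher (right) features in each of the 18 libraries, against the percent of reads on mir-6243, mir-6236 and mir-6240 (log axis), with colours for the 6 groups. On the left the level goes from 0 in CBD libraries 30 and 36, which have the smallest shares, to 4.52 in THC library 25, which has the largest, and on the right the CBD libraries lie at 7.10 to 7.52 and the THC libraries at 5.95 to 6.46.

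Single libraries weighed on the lower features more than on the higher ones. With any 1 of the 6 libraries left out, 8 of the 18 higher features passed the criterion in every fit, namely mir-3096b, mir-3096a, miR-6384, mir-5117, miR-155-5p, mir-181b-1, let-7e and mir-5097, against only mir-669o of the 27 lower ones. Without CBD library 24, 18 features were higher and 70 lower. Without THC library 25, 21 were higher and 4 lower, and without CBD library 30, 16 and 5. Without CBD library 36 the counts were 10 and 8, without THC library 31 they were 12 and 7, and without THC library 37 they were 16 and 16. Among the 27 lower features, CBD library 24 was the highest of its group in 17 and THC library 25 in 18, against 37.6% and 40.9% of all features tested. With a covariate for libraries 22 to 27, 27 features were higher and 28 lower, among them 17 of the 18 and 22 of the 27, and 58 in place of 7 reached an adjusted p of 0.1 by limma.

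Of the mature miRNAs also assayed by quantitative PCR, miR-155-5p alone passed the criterion between CBD and THC. Against control, the study's PCR in resting cells found miR-146a lower and miR-34a and miR-449a higher with CBD. In these libraries the log2 difference of CBD from control was 0.03 for miR-146a-5p and -0.02 for miR-34a-5p, neither past the criterion. It was 2.68 for miR-449a-5p, which passed on few reads. The NF-κB-induced miR-146a-5p measured 3647, 7229 and 8006 CPM with CBD and 5147, 7732 and 8875 CPM with THC, with overlapping groups and a log2 difference of -0.25 (-0.83 to 0.34). For miR-146a-5p the difference was -0.76 with the composition covariate and -0.52 under scaling by the reference miRNAs, and it did not pass the criterion in either. miR-34a-5p measured 48.8, 93.9 and 56.9 CPM against 44.7, 82.6 and 94.6 CPM (log2 difference -0.14, -0.95 to 0.67). The hairpin mir-34a held 7, 3 and 6 reads with CBD and 3, 3 and 1 with THC, and miR-449a-5p held 3, 2 and 6 against 2, 0 and 1. Both were separated without overlap, with log2 differences of 1.39 (0.25 to 2.53) and 1.74 (0.26 to 3.23), but did not pass the criterion (adjusted p = 0.187 and 0.212 by limma). The interval of miR-34a-5p leaves room for differences in the 1.5-fold range in either direction. That of miR-449a-5p, from few reads, lies wholly above 0. These data therefore do not show that the compounds act alike on either. Of the references, miR-191-5p differed by 0.38 (-0.03 to 0.79) and miR-103-3p by 0.18 (-0.31 to 0.67). Scaling by these references moved the median of all features by -0.23 on the log2 scale, and 4 features were then higher and 34 lower with CBD, of which mir-3096b, mir-3096a, miR-6384 and miR-34c-5p were among the 18 and 25 among the 27. Under that scaling no one of the 18 or the 27 changed its sign.

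Families and clusters were counted against the background of 3.30% and a median log2 difference of -0.08 over all features. Of 43 tested miRNAs linked to Toll-like receptor signalling, miR-155-5p and mir-155 were higher, with a median of 0.01 for the list. Next in p were miR-9-3p, without a read with CBD and at 2.36 CPM with THC, and miR-212-3p, at 216 ± 11.6 CPM against 140.6 ± 20.97 CPM (SD, n = 3), neither past the criterion. In the miR-34 and miR-449 family 1 of 12 was higher (median 0.28), namely miR-34c-5p. This miRNA reached the read filter only with its CBD reads. The count is therefore no evidence that the family differed from the background. Of 11 other p53-linked features 0 passed (median 0.15), led by miR-192-5p with a log2 difference of 0.38 (0.03 to 0.72). Of 39 features of the growth-promoting miR-17~92 cluster and its paralogs 0 passed, with a median of 0.29. There mir-19b-1 stood at 0.956 CPM with CBD and 5.49 CPM with THC, and miR-92b-3p at 202 CPM against 71.9 CPM (log2 1.49, 0.46 to 2.51, adjusted p = 0.153 by limma). The most abundant of them, miR-92a-3p, averaged 154445 CPM against 118892 CPM (log2 0.38, 0.04 to 0.71). Of 34 let-7 and miR-98 features 1 was higher (median 0.24), and the let-7b hairpin, at 4.22 CPM against 11.96 CPM, did not pass. The miR-181 family had 1 higher and 1 lower of 16 (median -0.01).

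Of 12 blood-lineage features, among them miR-142, miR-223 and miR-451, and of 58 features marking other cell types, 0 passed, with medians of -0.03 and -0.08. miR-142-5p, abundant in blood cells, differed by -0.17 (-0.51 to 0.17). The markers of other cell types with the smallest p, miR-133b-5p, miR-141-5p and miR-9-3p, were lower with CBD. Their log2 differences were -3.19 (-5.69 to -0.69), -1.68 (-3.01 to -0.34) and -1.58 (-2.85 to -0.32), while 23 of the 58 were above 0. The imprinted Dlk1-Dio3 cluster had 2 lower of 52 (mir-666 and mir-3071) with a median of -0.60, and the Sfmbt2-type repeats had 1 lower of 23 with a median of -0.38, and with the composition covariate these medians were 0.10 and 0.11. The entries with the latest numbers, such as miR-6384 and mir-5117, had 5 higher and 9 lower of 226 (6.19%), with a median of -0.35, or 0.14 with the covariate. The lower ones include mir-6366, which reached the read filter only with its THC reads. The 6 features of mir-6243, mir-6236 and mir-6240 had 0 past the criterion at a median of -3.12, the 6 of mir-3096a and mir-3096b had 2 higher at 0.98, and the 8 of the reference miRNAs had 0 at 0.03. Of the 31 features in the study's own table, 6 were higher and 6 lower, but that table was chosen on these libraries and is no independent evidence.

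The control mean lay between the means of the cannabinoids in 16 of the 18 higher and 23 of the 27 lower features. These features were chosen for their difference between the cannabinoids, which by itself favours a control mean in between. The share over all features was not computed, so the counts do not show that the compounds moved features in opposite directions. Both sides of the comparison used the same control libraries, so the values are given side by side without a test between them. For the 18 higher features the median log2 difference from control was 0.95 with CBD and -0.34 with THC, with 6 past the criterion for CBD (1.61% of all features) and 0 for THC (0.440%). For the 27 lower ones it was -1.40 with CBD and 0.99 with THC, with 2 past the criterion for each. The 2 that passed for THC were miR-1897-3p and miR-1962. These had no read in any control library, 7, 5 and 1 and 2, 2 and 1 reads with THC, and 1, 0 and 0 and 0, 0 and 0 reads with CBD. miR-1962 reached the 10-read filter only with its THC reads, so its difference from control is no separate evidence of a change with THC.

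In cells given LPS, CBD against THC, which shares no library with the resting comparison, gave 2 features higher with CBD (0.147%), the hairpin mir-1188 and the mature miR-7a-2-3p. No feature was lower, none reached an adjusted p of 0.1 by limma, and 36 reached 0.05 before adjustment (2.64%), while DESeq2 gave 0 and edgeR 1 past the criterion. mir-1188 held 3, 3 and 2 reads against 0, 0 and 1, and miR-7a-2-3p held 6, 3 and 1 against 0, 0 and 0. None of the 45 features of the resting comparison passed with LPS. Their median log2 difference there was 0.13 for the 18 and 0.06 for the 27, and the sign was the same as in resting cells in 12 of 18 and 13 of 27, where 46.9% of all features tested were above 0. miR-155-5p stood at 7698 ± 971 CPM with CBD and LPS and 8282 ± 567 CPM with THC and LPS (SD, n = 3), a log2 difference of -0.11.

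The change of the difference itself was tested as an interaction, in which 1 feature, mir-3096b, had an adjusted p of at most 0.1 (0.0734%). mir-3096b stood at 4628 ± 980 CPM with CBD and 1924 ± 222.3 CPM with THC in resting cells, and at 2340 ± 79.9 CPM and 2330 ± 107.01 CPM with LPS. The 2 differences were 1.25 and 0.01 on the log2 scale, and the difference between them was 1.24 (SE 0.23, adjusted p = 0.0779). No feature reached an adjusted p of 0.1 in this test by limma with RLE scaling, reference scaling, a filter of at least 1 read, the compared groups alone, hairpins alone, the composition covariate or no trend, nor in 11 of the 12 fits with 1 library left out, while the fit without CBD library 24 gave 5. At 0.05 before adjustment were 139 of all features (10.2%), 11 of the 18 higher and 21 of the 27 lower ones, chosen for their resting difference. Among the lower features, mir-696, miR-1897-3p and mir-6366 had a p of at most 0.05 with LPS as well, as did 2.64% of all features. Their log2 differences were -0.66, -1.38 and -1.09 there and -0.88, -1.91 and -1.88 in resting cells. With LPS, miR-1897-3p held only 0, 1 and 1 reads with CBD and 4, 2 and 2 with THC. mir-6366 held 0, 0 and 0 against 0, 1 and 3, and had reached the 10-read filter only with its resting THC reads.

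**Figure D5:**
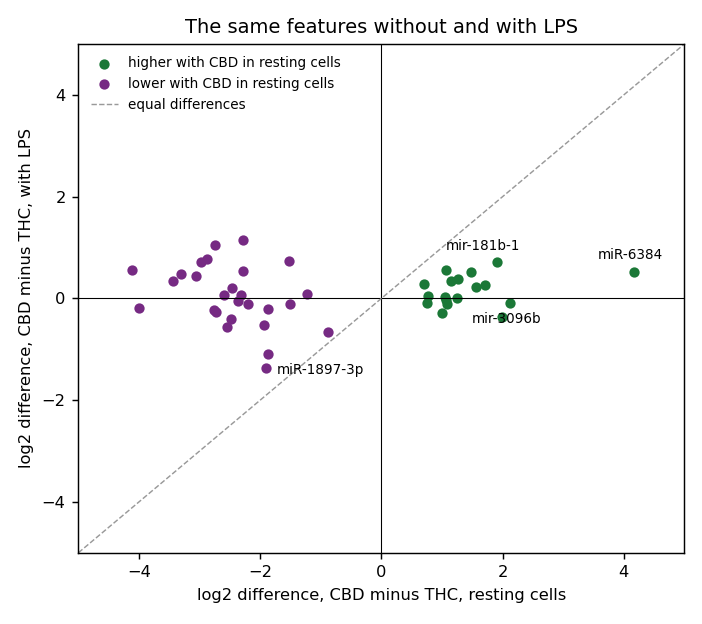
Log2 difference of CBD minus THC with LPS (vertical axis) against that in resting cells (horizontal axis) for the 45 features, which come from separate libraries, with the dashed line marking equal differences. The 18 higher and 27 lower features stand apart along the horizontal axis by their choice, whereas along the vertical axis they centre on 0.13 and 0.06.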

How the data were processed

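Small RNA was sequenced from 18 BV-2 libraries in 6 groups of 3. Per the study's methods the authors used BWA to align reads to the mouse miRBase sequences, with up to 10 mappings for a read, and counted reads per known miRNA. The deposited values are a scaled signal, reads divided by library size and edgeR's TMM factor (CPM). Every value was a whole multiple of what 1 read is worth, which gave the reads back, 541844 to 858551 per CBD or THC library. Reads that map to several entries can be shared among paralogs, and limits set by 3 reads cover counting error only, while standard errors and 95% intervals measure the spread between libraries.

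Features with at least 10 reads over the 18 libraries were tested with limma 3.58.1 (R 4.3.3, eBayes with a trend, 2-sided) on log2(CPM + 1) over all 6 groups, after a test on simulated data. The test was made on the deposited scaled values, and edgeR, which the authors used, was run on the recovered reads as an alternative. A feature passed when its unadjusted p was no higher than 0.005 and its change 1.5-fold or more, and Benjamini-Hochberg adjusted p are given beside it. Fold changes are on the log2(CPM + 1) scale and understate those of low features. All features past the criterion were named, the 12 with the smallest p in each direction with every value. To these were added the miRNAs the study measured by PCR and arms and hairpins of named features. Some members of the lists were also given, chosen by a small p or by abundance. The members and lists were chosen with earlier results of these data known. Other scalings, filters, pseudocounts, samples, covariates, edgeR 4.0.16 and DESeq2 1.42.0 on the recovered reads, and leaving out each library were tried. Positions and sequences came from RefSeq and GENCODE annotation of GRCm38.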

Additional observations from a re-analysis of the deposited data

Results flagged for a closer look

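The difference between CBD and THC in mir-3096b differed between resting and LPS-treated cells by the test of that difference. The resting difference exceeded that with LPS by 1.24 on the log2 scale (interaction, SE 0.23, adjusted p = 0.0779 by limma), with all 3 resting CBD libraries above all 3 resting THC libraries. No other feature reached an adjusted p of 0.1 in that test. By limma none reached it with RLE or reference scaling, a filter of at least 1 read, the compared groups alone, hairpins alone, the composition covariate or no trend, nor in 11 of 12 fits with 1 library left out, while the fit without CBD library 24 gave 5.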

How the results depend on the processing

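CBD and THC libraries were not paired in the main test, because the labels share no replicate number between groups. In the runs of title numbers 22 to 27, 28 to 33 and 34 to 39, the deviations of the CBD and the THC library from their group means correlated over the 1363 features with r of 0.26, 0.06 and 0.21. With these runs as a block, chosen after the data were seen, 50 features passed (26 higher and 24 lower, 36 of them among the 45), 44 in place of 7 reached an adjusted p of 0.1, 2 passed with LPS and 3 in place of 1 in the interaction. Against 45 features past the criterion, 19 passed with the composition covariate, 23 with edgeR's filterByExpr, 24 among hairpins alone, 19 among mature miRNAs alone and 158 in libraries 28 to 39 alone, and 18 to 88 with 1 library left out. Of the 45, 18 were higher and 27 lower, against 9 and 24 with plain library size, 4 and 34 with the reference miRNAs, 15 and 30 with RLE scaling, 20 and 12 with edgeR, 18 and 20 with DESeq2, 15 and 8 with filterByExpr and 16 and 3 with the composition covariate. edgeR gave 32, sharing 27 with limma. Against 7 features that reached an adjusted p of 0.1, there were 49 with DESeq2, 12 with the compared groups alone, 4 with the composition covariate, 58 with a covariate for libraries 22 to 27, 21 with filterByExpr, 14 among hairpins, 3 with library size, 2 among mature miRNAs, 4 without a trend, 1 with reference scaling, 267 in libraries 28 to 39, and 1 to 112 with 1 library left out. Against 2 with LPS, there were 0 with DESeq2 and filterByExpr, 1 with the compared groups alone, edgeR, hairpins or mature miRNAs, 4 with the composition covariate, and 0 to 3 with 1 library left out. Against 1 in the interaction, there were 5 with DESeq2, 3 with filterByExpr and with the covariate for libraries 22 to 27, 86 in libraries 28 to 39, and 0 with RLE scaling, at least 1 read, the compared groups alone, the composition covariate, hairpins, mature miRNAs, no trend or reference scaling, and 0 to 5 with 1 library left out. The causes of these shifts were not tested. No feature among the 45 changed its sign under the alternatives run. Among the miRNAs assayed by PCR, signs turned with 1 library left out, with ranges of -0.26 to 0.046 for mir-146a (0.018 without THC library 37), -0.48 to 0.11 for miR-146a-5p, -0.46 to 0.070 for miR-34a-5p (0.052 without CBD library 24), -0.74 to 0.29 for mir-449a and -0.060 to 0.33 for miR-103-3p. For mir-449a, with 4 reads over the 6 libraries, the sign also turned with DESeq2 (0.46), edgeR (0.40), a pseudocount of 2 (0.014) and libraries 28 to 39 alone (0.41), and for miR-103-3p with reference scaling (-0.10). Features with few reads are limited by depth, as 9 of the 27 lower ones had under 20 reads over the 6 libraries.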
